A study of Rattus norvegicus with 6 samples.

Results

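Receptors for bradykinin, for proteases, for histamine and for endothelin were examined in the dorsal root ganglia (DRG) of rats with chronic constriction injury (CCI) of the sciatic nerve. The 10 genes were chosen by name, namely Bdkrb1, Bdkrb2, F2r, F2rl1, F2rl2, Hrh1, Hrh2, Hrh3, Ednra and Ednrb, and each was found on 1 protein-coding row among the 43350 gene rows of the deposited table. Lumbar 4 to 6 DRG of male Sprague-Dawley rats, whose age the sample labels do not give, were taken on day 11 after surgery from 3 CCI rats and 3 sham rats, with 1 library per rat. Loose ligatures were placed around the left sciatic nerve of CCI rats, whereas in sham rats the nerve was exposed without ligation, although the labels name no treatment for these rats and their library protocol mentions pooling. The model leaves part of the nerve intact, and whole ganglia were sequenced, so neurons with and without an injured axon and all other cells of the ganglion share 1 library.

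All 10 genes encode G protein-coupled receptors on which mediators released in injured or inflamed tissue act. Bradykinin is cut from kininogens by kallikreins, acts in uninjured tissue mainly on the B2 receptor (Bdkrb2) and excites nociceptors, while the B1 receptor (Bdkrb1) is known to be induced by inflammation and binds kinins that have lost their last residue. Protease-activated receptors carry their own ligand, which is exposed when thrombin (F2r, F2rl2) or trypsin-like proteases (F2rl1) cut the extracellular end. Histamine from mast cells acts on H1 to H3 receptors, of which H1 couples to Gq, H2 to Gs and H3 to Gi, and endothelins act on the A receptor of vascular muscle and neurons and on the B receptor of glia and endothelium.

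Bdkrb2 was the receptor that rose after CCI. It passed the limits the authors used, which ask for a change of 0.58 or more on the log2 scale together with an unadjusted p under 0.05, and it did not pass after adjustment. Of the 8 receptors tested, 1 was called higher and 0 were called lower, beside 2.57% of all 26663 rows tested called higher and 1.26% called lower. At an adjusted p under 0.05 there were 0 of 8 receptors and 0.0938% of all rows. The median log2 fold change of the 8 receptors was -0.07, beside 0.01 over all rows tested. Hrh2 and Bdkrb1 lay under the filter of a mean of at least 0.5 FPKM (fragments counted per gene, divided by transcript length and by the depth of the library) over the 6 libraries, so they were not tested and are given by their counts.

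Total counts lay between 75423546 and 87615743 per library. In a list of 10 injury genes all were called higher, among them Atf3, a transcription factor induced by axon injury (23.8 FPKM in the CCI group and 2.12 FPKM in the sham group), and Npy, a neuropeptide (79.3 and 1.10 FPKM). The authors had already reported these 10 genes as upregulated in the same data. Their calls therefore repeat that result and are no separate evidence of the injury. The summed FPKM of that list was 483, 304 and 264 in CCI 1, 2 and 3 and between 84.7 and 92.1 in the sham libraries. The neuronal markers Uchl1 and Tubb3, at 789 and 1109 FPKM in the sham group, were present as the label of the tissue requires. Sham 1 stood apart by skeletal muscle markers, whose sum was 129 FPKM there and 4.26 to 18.8 FPKM in the other libraries.

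The receptors spanned a wide range of levels, which are compared here as FPKM because this unit takes the length of the row into account. Ednrb was the most abundant, with a mean of 14.8 FPKM over the 6 libraries, followed by F2r at 10.9 FPKM and F2rl2 at 6.18 FPKM. Bdkrb2 was at 3.41, Ednra at 1.97, Hrh1 at 1.36 and F2rl1 at 0.740 FPKM. Hrh3 and Hrh2 were near 0.5, at 0.505 and 0.425 FPKM, and Bdkrb1 was at the limit of detection. Ednrb was above F2r in all 6 libraries and their ranges did not meet, and the same held for F2r above F2rl2, for Ednra above Hrh1 and for Hrh1 above F2rl1. The ranges of F2rl2 and Bdkrb2 overlapped, as did those of Bdkrb2 and Ednra, of F2rl1 and Hrh3 and of Hrh3 and Hrh2, and in the last pair Hrh3 was higher in 4 of 6 libraries. The 10 receptors together summed to 37.2 to 41.9 FPKM in the CCI libraries and to 38.1 to 44.0 FPKM in the sham libraries. Of the 8 tested receptors, 4 were lowest in CCI 1 and 4 were highest in sham 1.

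**Figure D1:**
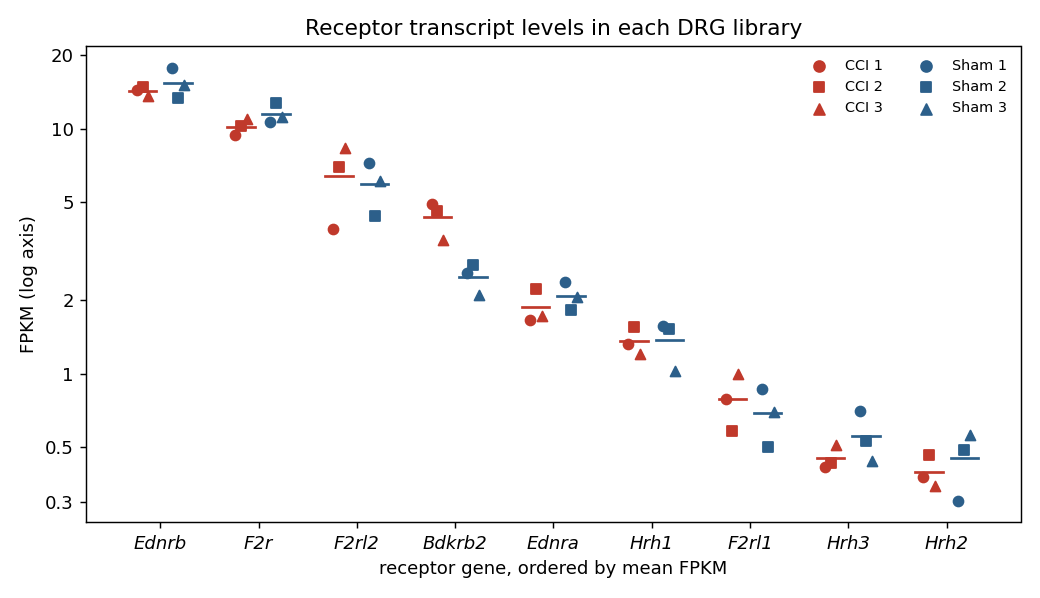
FPKM on a log axis of 9 receptor genes in each library, ordered by mean FPKM, with CCI libraries in red, sham libraries in blue, symbols for replicates 1 to 3 and a line at each group mean. Bdkrb2 is the gene whose 3 CCI libraries all lie above its 3 sham libraries, and Bdkrb1, with a count of 0 in 5 of 6 libraries, is not drawn.

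Bdkrb2, on the plus strand of chromosome 6 from 129399468 to 129429676 in the rat genome the authors call V101, measured 4.92, 4.61 and 3.51 FPKM in CCI 1, 2 and 3. In sham 1, 2 and 3 it measured 2.57, 2.77 and 2.09 FPKM. The groups did not overlap, and CCI 3, the lowest CCI library, was above sham 2, the highest sham library. Of all rows tested, 8.63% had all CCI libraries above all sham libraries. The group means were 4.35 ± 0.739 FPKM after CCI and 2.47 ± 0.352 FPKM after sham surgery (SD, n = 3). This was a 1.74-fold increase with a 95% interval of 1.33-fold to 2.28-fold, or 0.80 on the log2 scale (standard error 0.16, unadjusted p = 0.00212 and Benjamini-Hochberg adjusted p = 0.171 by the edgeR quasi-likelihood F test). By unadjusted p it ranked 328 of the 26663 rows, within the first 1.23%. Fits that lacked 1 library gave log2 fold changes from 0.69 to 0.93, with p up to 0.00894 in the edgeR model, and the gene was called in each of them. DESeq2 gave it an adjusted p of 0.000547.

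As a description within each library, Bdkrb2 was set against the more abundant receptors. The ratio of Bdkrb2 to F2r in FPKM was 0.523, 0.450 and 0.321 in CCI 1, 2 and 3 and 0.242, 0.217 and 0.187 in sham 1, 2 and 3. The ratio to Ednrb was 0.259 to 0.340 in the CCI libraries and 0.139 to 0.208 in the sham libraries. These ratios rest on the same Bdkrb2 values and on receptors whose own log2 fold changes were -0.19 and -0.12, so they are no further test of its rise. Bdkrb2 made up 8.54% to 13.2% of the summed FPKM of the 10 receptors after CCI and 5.33% to 7.27% after sham surgery.

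The CCI libraries ranked in the same order for Bdkrb2, for the injury genes and for macrophage markers. Pericyte and smooth muscle markers also had this order, with sums of 57.8, 54.9 and 54.7 FPKM in CCI 1, 2 and 3. So did skeletal muscle markers, at 8.40, 5.42 and 4.26 FPKM. Schwann cell markers had the reverse order, at 2523, 2800 and 3544 FPKM. An order of only 3 libraries is easily shared by chance. The summed FPKM of 12 macrophage markers was 87.7, 73.2 and 57.99 in CCI 1, 2 and 3 and 36.9, 38.5 and 46.8 in sham 1, 2 and 3, and 7 of the 12 (58.3%) were called higher beside 2.57% of all rows, among them C1qc, a complement subunit made by macrophages (16.5 against 8.22 FPKM). In the other 5 the groups overlapped. The authors had already reported Cd68, Csf1r, Cx3cr1 and Tyrobp as upregulated in the same data, and the C1q complex as an enriched term. The calls of these markers therefore repeat that result and are no separate evidence. In the sham libraries the orders were not the same, since sham 3 was lowest for Bdkrb2 and highest for macrophage markers. Of 5 fibroblast markers 0 were called, with sums of 278 to 482 FPKM after CCI and 409 to 437 FPKM after sham surgery, and CCI 1, the library highest in Bdkrb2, was the lowest in them. For endothelium 0 of 8 tested markers were called, with sums of 23.9 to 34.9 and 28.4 to 35.0 FPKM, and Cldn5 had a count of 0 in every library. Of 9 nociceptor markers 0 were called. Their sums, in which Prph weighed most, were 1434 to 1461 FPKM after CCI and 1251 to 1454 FPKM after sham surgery, whereas 6 of the 9 had negative log2 fold changes, the median was -0.15, and 5 had all sham libraries above all CCI libraries and 2 the reverse. Of all 26663 rows tested, 2321 had all sham libraries above all CCI libraries and 2301 the reverse. Of 8 neuronal markers 0 were called by the limits on size and unadjusted p, with a median log2 fold change of -0.26 and sums of 4903 to 5462 FPKM after CCI and 5459 to 5701 FPKM after sham surgery. Among these, Nefl, a neurofilament subunit named after its value was seen, had a log2 fold change of -0.57 (Benjamini-Hochberg adjusted p = 0.0457 by the edgeR quasi-likelihood F test). The part of macrophages and of injured neurons in the rise of Bdkrb2 was not tested. In whole ganglia, more cells of a type and more RNA per cell cannot be told apart.

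**Figure D2:**
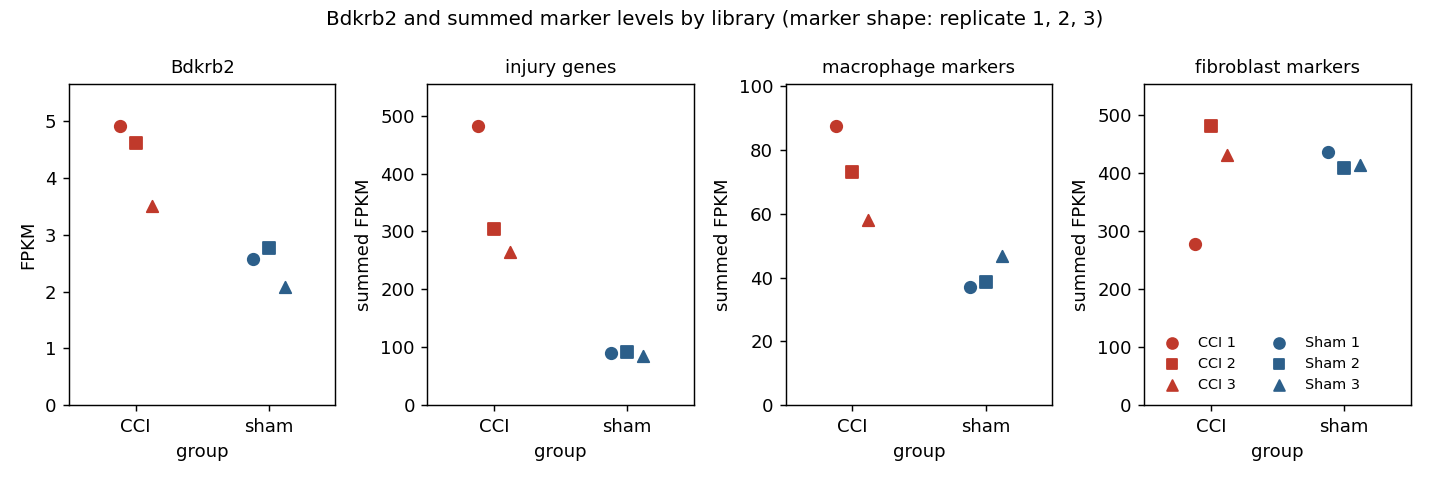
Bdkrb2 in FPKM (left) and the summed FPKM of injury genes, macrophage markers and fibroblast markers in each library, with every axis starting at 0, CCI libraries in red and sham libraries in blue. CCI 1 is the highest and CCI 3 the lowest CCI library for Bdkrb2, the injury genes and the macrophage markers, while the fibroblast sum is lowest in CCI 1 at 278.

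Bdkrb1 lies 8.48 kb beyond the end of Bdkrb2 on the same strand of chromosome 6 (129438158 to 129440574). Its count was 0 in every CCI library, 3 in sham 2 and 0 in sham 1 and sham 3. No library rose above 3 counts, taken as the detection limit, which corresponded to 0.0342 to 0.0394 CPM (counts scaled to the depth of each library). A change of Bdkrb1 below this limit was therefore not detectable at this depth.

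None of the 3 protease-activated receptors was called. F2r, the thrombin receptor PAR1, on the minus strand of chromosome 2 (26118760 to 26135340), measured 9.41, 10.3 and 10.9 FPKM in CCI 1, 2 and 3 and 10.6, 12.8 and 11.2 FPKM in sham 1, 2 and 3. It varied little, the highest library being 1.36 times the lowest, and CCI 3 lay above sham 1, so the groups overlapped. On the log2 scale the change was -0.19 (standard error 0.10, unadjusted p = 0.0875 by the edgeR quasi-likelihood F test), with a 95% interval from -0.42 to 0.04. Changes of the size set as the limit, in either direction, lay outside this interval. Without sham 1 the log2 fold change was -0.25 (unadjusted p = 0.0442 by the edgeR quasi-likelihood F test), which still fell short of the limit. F2r exceeded F2rl2 by 1.31 to 2.41 times in the CCI libraries and by 1.46 to 2.89 times in the sham libraries (exact permutation p = 0.6, two-sided). These ranges overlapped. The smallest p that this permutation test can give with 3 libraries per group is 0.1, so it cannot decide whether the ratio changed.

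F2rl2, the receptor PAR3, which serves as a cofactor for cleavage of other receptors of this family and marks a group of itch-related neurons in rodents, varied more than any other tested receptor that was not called. It measured 3.91, 7.00 and 8.37 FPKM in CCI 1, 2 and 3 and 7.24, 4.42 and 6.12 FPKM in sham 1, 2 and 3, so that CCI 1 was the lowest and CCI 3 the highest of all libraries. The fold change on the log2 scale was 0.10 (standard error 0.30, unadjusted p = 0.748 by the edgeR quasi-likelihood F test). Its 95% interval, from -0.62 to 0.82, held the limit in both directions. Without CCI 3 the log2 fold change became -0.13 and without sham 2 it became -0.07. Of 7 markers of itch-related nociceptors 0 were called, and all 7 had positive log2 fold changes, from 0.02 for Sst to 1.02 for Htr1f, with a median of 0.20. Their sums were 43.7 to 50.6 FPKM after CCI and 41.1 to 49.9 FPKM after sham surgery. The most abundant, Sst, was at 21.2, 21.6 and 22.1 FPKM in CCI 1, 2 and 3 and at 23.7, 16.1 and 23.7 FPKM in sham 1, 2 and 3. The part of these neurons in the spread of F2rl2 was not tested. The row of F2rl2 (chromosome 2, plus strand, 26238662 to 26247965) lies inside that of Iqgap2 on the minus strand, and since the use of strand in counting is not stated, reads of the genes may not have been separated. Counts of Iqgap2 were 3678, 3624 and 3814 for CCI 1, 2 and 3, against 3619, 3756 and 2909 for sham 1, 2 and 3, and their part in the values of F2rl2 was not tested.

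F2rl1, the trypsin and tryptase receptor PAR2, was the least abundant of the 3 (chromosome 2, 25222328 to 25235275). It measured 0.790, 0.583 and 0.996 FPKM in CCI 1, 2 and 3 and 0.870, 0.502 and 0.697 FPKM in sham 1, 2 and 3. The lowest library of either group was its replicate 2, and the groups overlapped widely. Its log2 change was 0.18 (standard error 0.28, unadjusted p = 0.550 by the edgeR quasi-likelihood F test), with a 95% interval from -0.50 to 0.86. Leaving out CCI 3 or sham 2 brought it to -0.02 and -0.00063. F2rl3, which encodes the further thrombin receptor PAR4, had 70 to 145 counts in the CCI libraries and 115 to 146 in the sham libraries and lay under the filter.

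The histamine receptors were low throughout, and of the 2 tested 0 were called. Hrh1 (chromosome 4, 146455332 to 146457074) measured 1.32, 1.56 and 1.21 FPKM in CCI 1, 2 and 3 and 1.56, 1.52 and 1.02 FPKM in sham 1, 2 and 3. Replicate 3 was the lowest library in both groups, and the group means were 1.36 ± 0.179 and 1.37 ± 0.298 FPKM (SD, n = 3). Its log2 fold change was -0.02 (standard error 0.22, unadjusted p = 0.932 by the edgeR quasi-likelihood F test), and its 95% interval from -0.55 to 0.51 did not reach the limit in either direction. Hrh3 (chromosome 3, 175473078 to 175479395), the presynaptic autoreceptor and heteroreceptor of the family, measured 0.416, 0.430 and 0.509 FPKM in CCI 1, 2 and 3 and 0.703, 0.533 and 0.438 FPKM in sham 1, 2 and 3. Sham 1 was the highest, and CCI 3 lay above sham 3, so the groups overlapped. On the log2 scale the change was -0.32 (standard error 0.23, unadjusted p = 0.209 by the edgeR quasi-likelihood F test), with a 95% interval from -0.88 to 0.23, and it was -0.13 without sham 1. Hrh2 (chromosome 17, 10921507 to 10952441) was read by counts of 62, 75 and 53 for CCI 1, 2 and 3, against 53, 78 and 94 for sham 1, 2 and 3, with both groups reaching down to 53. Hrh4 had a count of 0 in every library.

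Both endothelin receptors had negative fold changes and neither was called. Ednrb, on the minus strand of chromosome 15 (88004774 to 88090241), measured 14.4, 14.8 and 13.5 FPKM in CCI 1, 2 and 3 and 17.8, 13.3 and 15.0 FPKM in sham 1, 2 and 3. Sham 1 was the highest library and sham 2 the lowest, so the CCI libraries lay within the range of the sham libraries. The fold change on the log2 scale was -0.12 (standard error 0.11, unadjusted p = 0.292 by the edgeR quasi-likelihood F test), with a 95% interval from -0.38 to 0.13, and it was -0.01 without sham 1. The summed level of 9 satellite glia markers, cells in which Ednrb is known to be expressed, was 234 to 237 FPKM after CCI and 223 to 237 FPKM after sham surgery, and 0 of the 9 were called.

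Ednra, on the plus strand of chromosome 19 (33928356 to 33991703), measured 1.66, 2.21 and 1.71 FPKM in CCI 1, 2 and 3 and 2.36, 1.81 and 2.05 FPKM in sham 1, 2 and 3. CCI 2 lay above sham 2 and sham 3, and the groups overlapped. Its log2 change was -0.17 (standard error 0.16, unadjusted p = 0.313 by the edgeR quasi-likelihood F test), with a 95% interval from -0.54 to 0.20. Of 10 pericyte and smooth muscle markers 0 were called, with sums of 54.7 to 57.8 FPKM after CCI and 45.7 to 55.8 FPKM after sham surgery. Ednrb exceeded Ednra in every library, by 7.76 ± 1.02 times after CCI and 7.39 ± 0.114 times after sham surgery (SD, n = 3). The sham ratios lay within the range of the CCI ratios (exact permutation p = 0.7, two-sided). With 3 libraries per group this test cannot give a p below 0.1. No conclusion on a change of the ratio was therefore drawn from the test.

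After Benjamini-Hochberg adjustment over all rows, the adjusted p of the 7 receptors not called lay between 0.557 and 0.987 in the edgeR model.

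**Figure D3:**
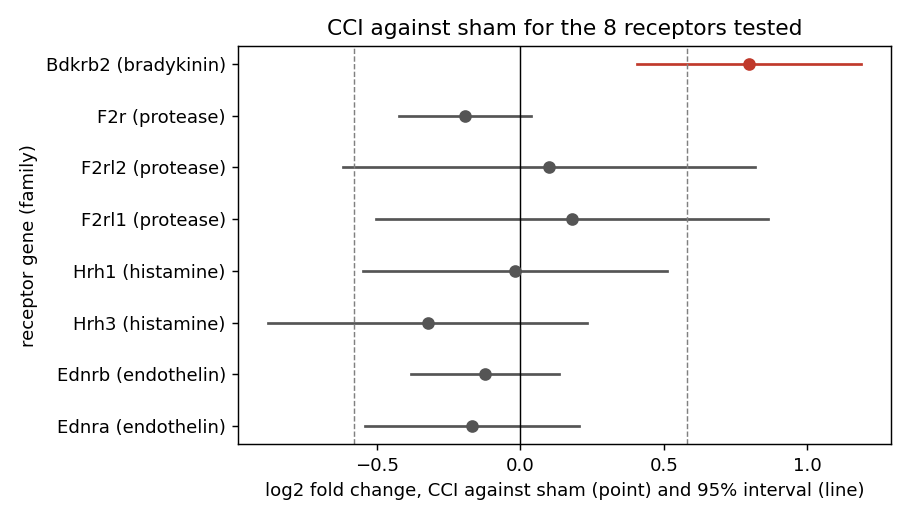
Log2 fold change of CCI against sham (points) with its 95% interval (lines) for the 8 receptors tested, grouped by family, with dashed lines at -0.58 and 0.58. Bdkrb2, in red, lies at 0.80 with an interval from 0.41 to 1.19, and the intervals of the other receptors cross 0.

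The genes that supply, remove or transmit the ligands of these receptors were followed in 6 lists. Of 58 such genes tested, 6 (10.3%) were called higher, beside 2.57% of all rows, and 0 were called lower. After Benjamini-Hochberg adjustment 0 passed in the edgeR model and 5 passed in DESeq2, namely all of those called except Prkcb, and Ctss also passed in edgeR fitted on protein-coding rows only (adjusted p = 0.0457). Their median log2 fold change was 0.05. The genes called were Ctss, Plau, Thbd, Ecel1, Prkcb and Rgs2. The authors had already reported Ctss as upregulated in the same data, so its call is no separate evidence.

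For bradykinin, 0 of 5 tested genes were called. The rows of its precursor and of the kallikreins were at or near 0 in the ganglia, with 0 counts of Kng1 in each CCI library and 4 in each sham library, and 0 counts of Klk1 and Klkb1 in all libraries. Kng2 was not analysed here. Reads of Kng1 are uncertain because kininogen genes are similar in sequence. Ace, the main enzyme that breaks bradykinin down, measured 1.49 ± 0.151 FPKM in the CCI group and 1.89 ± 0.555 FPKM in the sham group (SD, n = 3) and was not called (log2 fold change -0.36, unadjusted p = 0.160 by the edgeR quasi-likelihood F test).

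The protease list held genes for proteases and for proteins that bind or inhibit them. Of its 10 tested genes, 3 were called higher, which is 30% beside 2.57% of all rows. Ctss, a cathepsin of macrophages that is known to cut PAR2, measured 13.2, 9.90 and 10.02 FPKM in CCI 1, 2 and 3 and 4.89, 5.15 and 5.64 FPKM in sham 1, 2 and 3 (log2 fold change 1.06, standard error 0.14, Benjamini-Hochberg adjusted p = 0.0789 by the edgeR quasi-likelihood F test). The groups did not overlap, nor did the summed FPKM of the macrophage markers, and the part of these cells was not tested. Plau, the urokinase plasminogen activator, rose from 1.67 ± 0.0510 to 2.83 ± 0.607 FPKM (SD, n = 3), a log2 fold change of 0.75 that was 0.51, under the limit, with limma on log2(FPKM + 1). Thbd, thrombomodulin, which binds thrombin and turns it away from its receptors, rose from 5.62 ± 1.41 to 8.84 ± 0.267 FPKM (SD, n = 3), a log2 fold change of 0.64 that fell under the limit, to 0.48, without sham 3. Serpine2, an inhibitor of thrombin made by glia, was abundant at 23.8 ± 2.88 and 24.6 ± 4.25 FPKM (SD, n = 3) and was not called (log2 fold change -0.06, or 0.06 without sham 1). The thrombin gene F2 itself had counts of 8, 8 and 6 for CCI 1, 2 and 3, against 0, 3 and 0 for sham 1, 2 and 3, so that the sham libraries did not exceed the detection limit.

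For histamine, 0 of 2 tested genes were called. Hdc, the enzyme that makes histamine, lay under the filter with counts of 137, 115 and 119 for CCI 1, 2 and 3, against 16, 71 and 58 for sham 1, 2 and 3. The groups did not overlap and sham 1 was the lowest. In a fit without the filter the log2 fold change of Hdc was 1.39 (standard error 0.54, unadjusted p = 0.0355 and Benjamini-Hochberg adjusted p = 0.513 by the edgeR quasi-likelihood F test). Of 9 mast cell markers found, Hdc among them, 2 were tested and 0 called, with sums of 15.5 to 16.1 FPKM after CCI and 9.54 to 15.3 FPKM after sham surgery. Their sum was also lowest in sham 1. Hdc reached at most 0.647 FPKM in any library, so other genes of the list set most of this sum. The tryptase genes Tpsab1 and Tpsb2 lay under the filter and their groups overlapped. Counts of Tpsab1 were 11, 26 and 10 for CCI 1, 2 and 3 and 0, 19 and 16 for sham 1, 2 and 3. Those of Tpsb2 were 4, 33 and 9 for CCI and 23, 46 and 19 for sham. The defining markers Cma1, Ms4a2 and Fcer1a stayed at or below 0.291 FPKM in the mean of either group, and Mcpt1 had a count of 0 in every library. Hnmt, which inactivates histamine, had 51 to 63 counts after CCI and 22 to 84 counts after sham surgery.

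For endothelin, 1 of 5 tested genes was called higher (20%, beside 2.57% of all rows). It was Ecel1, a peptidase named for its likeness to the endothelin-converting enzymes and also known as damage-induced neuronal endopeptidase, which measured 2.78, 0.962 and 0.887 FPKM in CCI 1, 2 and 3 and 0.392, 0.153 and 0.226 FPKM in sham 1, 2 and 3. The groups did not overlap, and CCI 1 was far above the other CCI libraries. Its log2 fold change was 2.57 (standard error 0.57, Benjamini-Hochberg adjusted p = 0.201 by the edgeR quasi-likelihood F test), and it was 1.83 without CCI 1 and 0.94 with limma on log2(FPKM + 1). Edn1 measured 0.596 ± 0.0982 FPKM in the CCI group and 0.705 ± 0.309 FPKM in the sham group (SD, n = 3), and Edn3 measured 1.48 ± 0.172 and 1.20 ± 0.436 FPKM (SD, n = 3). Neither was called, Edn1 changed sign without sham 1 (log2 fold change 0.16), and Edn3 was called higher without sham 1 (log2 fold change 0.62, unadjusted p = 0.0233 by the edgeR quasi-likelihood F test). Edn2 had counts in sham 1 alone, where there were 7. Ece1, which makes active endothelin, was at 14.8 ± 0.259 and 13.9 ± 0.855 FPKM (SD, n = 3) and was not called.

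Among the G proteins and effectors, 1 of 25 tested genes was called higher, which is 4% and near the 2.57% of all rows. Prkcb, a protein kinase C isoform that acts downstream of Gq, measured 8.12, 19.5 and 9.71 FPKM in CCI 1, 2 and 3 and 5.48, 6.18 and 6.07 FPKM in sham 1, 2 and 3. All CCI libraries were above all sham libraries, and CCI 2 set much of the difference, since the log2 fold change of 1.06 became 0.58 and fell under the limit without it. Of 11 tested genes of receptor desensitization, 1 was called higher (9.09%, beside 2.57% of all rows). It was Rgs2, which ends Gq signaling, at 4.56, 6.62 and 4.89 FPKM in CCI 1, 2 and 3 and 3.32, 3.596 and 3.14 FPKM in sham 1, 2 and 3. Its log2 fold change of 0.66 fell to 0.48, under the limit, without CCI 2, and was 0.53 with limma on log2(FPKM + 1).

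**Figure D4:**
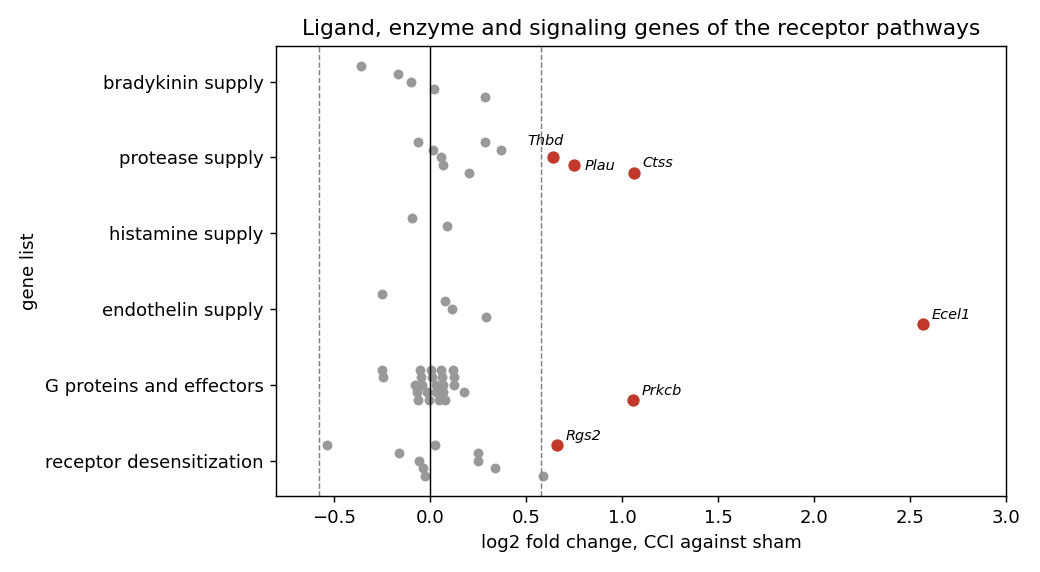
Log2 fold change of CCI against sham for the 58 tested genes of 6 pathway lists, with dashed lines at -0.58 and 0.58 and the 6 genes called higher in red with their names. The grey point just beyond 0.58 in the last list had an unadjusted p above 0.05 and was not called.

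The annotation carried by the table, which played no part in choosing the receptors, placed all 10 in the KEGG pathway of neuroactive ligand-receptor interaction and 7 of them in calcium signaling. Bdkrb1, Bdkrb2, F2rl1 and Hrh1 were listed under inflammatory mediator regulation of TRP channels, the pathway in which such receptors sensitize ion channels of nociceptors. Of the 83 tested genes of that pathway, 3 were called higher, namely Bdkrb2, Prkcb and Il1r1, the interleukin 1 receptor (5.47 ± 2.36 against 2.22 ± 0.413 FPKM, SD, n = 3). The 1 called lower was Pla2g4e, a phospholipase A2 (0.503 ± 0.122 against 0.877 ± 0.0682 FPKM, SD, n = 3). Il1r1 and Pla2g4e were named after their values were seen. The share called higher was 3.61% in that pathway, 4.38% in calcium signaling (6 of 137 tested genes) and 9.20% in neuroactive ligand-receptor interaction (15 of 163), beside 2.57% of all rows. In complement and coagulation cascades, which listed Bdkrb1, Bdkrb2, F2r and F2rl2, it was 28.3% (13 of 46), and the genes called there included Bdkrb2, Plau, Thbd, Serpina1 and the macrophage markers C1qa, C1qb and C1qc. The other pathways listing 3 or more receptors were pathways in cancer (3.07%), regulation of actin cytoskeleton (2.84%) and cGMP-PKG signaling (1.52%). All these pathways list Bdkrb2, so the receptor already called counts in each share.

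The protein-coding genes whose log2 CPM followed Bdkrb2 most closely over the 6 libraries were Cfap157, Serpina1 and Ptp4a1, with Pearson's r of 0.997, 0.996 and 0.993. Over 6 libraries such values are common, and 331 of the 12987 genes compared had an r above 0.9. Of these 3 genes, Serpina1, a serine protease inhibitor, had the largest log2 fold change, 1.54. For Ednrb, the most abundant receptor, they were Eif4ebp3, Atxn2 and Gpr155, with r of 0.986, 0.982 and 0.981, and each of these had a log2 fold change between -0.06 and -0.03.

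**Figure D5:**
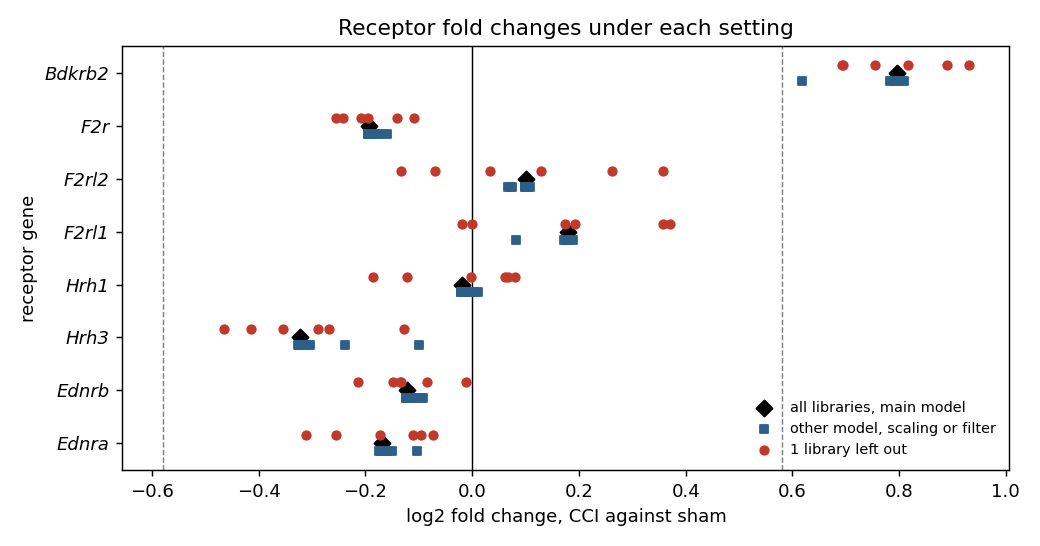
Log2 fold change of CCI against sham for the 8 receptors with all libraries (diamonds), with 1 library left out (circles) and under another model, scaling or filter (squares), with dashed lines at -0.58 and 0.58. Every value of Bdkrb2 lies above 0.58, between 0.62 and 0.93, and every value of the other receptors lies between the dashed lines.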

How the data were processed

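The members and gene lists were chosen with earlier results of these data known. According to the methods, the authors mapped clean reads with HISAT2, assembled transcripts with StringTie 1.3.0 and deposited for each gene row raw counts and FPKM values per rat, in which a count of 0 is listed as a small constant. The strand setting is not given in the sources used here. No numeric sample column was left unused.

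Counts of 26663 rows, those whose FPKM averaged 0.5 or more, were tested with edgeR 4.0.16 (R 4.3.3; TMM factors, quasi-likelihood test, trended prior, 3 CCI against 3 sham libraries). Rows were called by the limits of the authors (p under 0.05, change of 0.58 or more on the log2 scale), and p-values were adjusted by Benjamini-Hochberg over all rows. Standard errors are the log2 fold change divided by the root of the F statistic, and 95% intervals use its t distribution. The labels do not say how rats were batched, so a batch that differed between the groups cannot be told apart from the injury. The p-values set the group difference against the spread of these libraries within groups. The test was tried on simulated counts with 200 changed genes.

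Where a symbol had several rows, a protein-coding row and then the largest total count was taken. The 10 receptors, 13 chosen pathway genes, all listed genes called and the 3 genes most alike in pattern were named. Alternatives were RLE factors, a filter of 1 FPKM, no filter, protein-coding rows, DESeq2 1.42.0, limma 3.58.1 on log2(FPKM + 1) and log2(FPKM + 0.1), omission of single libraries and a replicate block. Python 3.11.15, scipy 1.17.1 and matplotlib 3.10.9 were used.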

Additional observations from a re-analysis of the deposited data

How the results depend on the processing

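The call of Bdkrb2 and the count of 1 receptor called higher and of 0 called lower were kept under all 14 alternatives. The median log2 fold change of the receptors, -0.07, was 0.03 without sham 1 and -0.15 without sham 3, and -0.14 to -0.04 under the others. DESeq2 placed 1 receptor, Bdkrb2, at an adjusted p under 0.05, where edgeR placed 0, and the range of that gene's adjusted p over the alternatives was 0.000547 to 0.394. Of uncalled receptors, Hrh1 changed sign to 0.00318 with limma on log2(FPKM + 1) and 0.011 on log2(FPKM + 0.1). With a library left out Hrh1 ranged from -0.19 to 0.079, F2rl1 from -0.019 to 0.37, F2rl2 from -0.13 to 0.36, Serpine2 from -0.17 to 0.065 and Edn1 from -0.43 to 0.16. Pathway genes called higher, 6 with all libraries, were 4 without CCI 2 and with limma on log2(FPKM + 1), and 8 without sham 1 (adding Edn3 and Rgs16) and without the filter (adding Hdc and Plcb2). Those called lower went from 0 to 1 without the filter (Kng1) and ranged from 0 to 1 with a library left out (Rgs3, without sham 1).

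Over the whole table, 686 rows were called higher and 336 lower. Fitting protein-coding rows only gave 332 and 112, and limma on log2(FPKM + 1) gave 410 and 161. At an adjusted p under 0.05, with 17 higher and 8 lower rows, protein-coding rows gave 36 and 35, DESeq2 gave 432 and 319, and limma on log2(FPKM + 0.1) gave 5 lower. Leaving out a library gave 3 to 40 higher and 3 to 21 lower rows. The causes were not tested. The block for the replicate number gave 0 and 0, changed no receptor's call and left Bdkrb2 at an adjusted p of 0.212, and same-numbered libraries did not deviate together (r of -0.01, -0.02 and -0.05). Depth limited Bdkrb1, whereas Hrh2 and F2rl3 were left out by the filter. In a fit without the filter their log2 fold changes were -0.19 for Hrh2 and -0.31 for F2rl3 (unadjusted p = 0.586 and 0.341 by the edgeR quasi-likelihood F test).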
